A study of Mus musculus with 6 samples.

Results

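Genes of the TNF superfamily and of the interleukin receptors were followed in hematopoietic stem cells (HSCs), the rare marrow cells from which all blood lineages are renewed. The set held every row of the deposited table whose symbol begins with Tnfrsf or Tnfsf, or with Il, digits and r. The 5 rows Il3ra, Il6ra, Il7r, Il11ra1 and Il27ra were left out. This gave 67 of 24091 genes: 20 TNF receptors, 12 TNF family ligands and 35 interleukin rows, and 48 of the 67 had enough counts to be tested. The interleukin rows hold 1 gene that encodes no receptor, Il1rn, the antagonist that occupies the IL-1 receptor.

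The cells were wild type and came from mice of 20 months (aged 1, 2 and 3) and of 2 months (young 4, 5 and 6). They had been sorted for Sca-1, c-Kit and CD150 and against lineage markers and CD48. Each library was made from pooled mice, and the series gives 4 aged and 30 young mice without saying whether per library or per group. The p-values therefore measure the spread between libraries. If the numbers are per group, libraries of a group may share 1 pool, and that spread may be wholly technical. The number of mice pooled also differed with age, so its effect cannot be told apart from that of age. The labels name neither strain nor sex. The comparison asks how age changes the RNA of these cells. In bulk RNA, fewer cells that express a gene and less RNA per cell cannot be told apart.

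TNF family ligands are mostly membrane proteins that bind as trimers to TNF receptors. Receptors with a death domain can start caspase signalling, while most others recruit TRAF proteins and turn on NF-kB. IL-1 and IL-17 receptors also lead to NF-kB, whereas most other interleukin receptors pair a private chain with a shared chain and signal through JAK kinases and STAT factors. In blood stem cells such signals are known for shifting quiescence, survival and lineage output during infection and inflammation.

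Aged HSCs had more RNA of 5 members and less of none at an adjusted p under 0.05 (edgeR's quasi-likelihood test over all 13413 tested genes; such genes are said here to be called). These were the ligands Tnfsf10 and Tnfsf13 and the receptor genes Il1rapl2, Il10ra and Il17re. The 5 are 10.4% of the 48 tested members, and among all tested genes 5.76% were called, 4.26% higher and 1.50% lower. Each member's 3 aged values lay above its 3 young values for 15 tested members and below them for 2, which is 31.2% and 4.17% of the 48, against 19.0% and 17.6% of all tested genes. The median log2 fold change of the tested members was 0.37, against 0.04 over all tested genes, and 33 of the 48 were positive, against 52.7% of all tested genes. With p under 0.05 before adjustment, 14 members were higher and 2 lower, which is 29.2% and 4.17%, against 13.9% and 11.1% of all tested genes.

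Library depth ran from 16452829 to 21918658 counts. Stem cell markers were present in every library: Procr, Slamf1, Kit and Hlf each stood at 37 CPM or more (counts scaled to library size by TMM). The 10 stem cell markers summed to 2661 to 3279 CPM in aged and 1365 to 2365 CPM in young libraries, with 5 called higher (Procr, Ly6a, Mecom, Fgd5 and Hoxb5) and 1 lower (Ctnnal1), and the part of this shift in the members' differences was not tested. Young 4 stood apart, with a TMM factor of 0.765 against 1.04 to 1.08 in the others. It was the lowest young library for 27 of the 48 tested members and the highest for 20. Its counts differed from those of young 5 and young 6 by a chi-square of 205 and 220 per degree of freedom, against 11.1 between young 5 and young 6. No 2 libraries of a group agreed within sampling noise. Aged 2 had counts in 66 of the 67 members, against 57 to 62 in the other libraries. T cell genes Cd3e, Cd3d, Cd3g and Cd8a were at or under 0.361 CPM in every library, and 6 of the 8 T cell markers were in the table, summing to 16.2 to 19.2 CPM in aged and 21.9 to 25.4 CPM in young libraries, mostly from Lck, with Cd4 called lower. B cell markers summed to 59.4 to 87.0 CPM in aged and 73.5 to 133 CPM in young libraries, nearly all from Cd79b. Pax5 and Ms4a1 were at or under 0.413 CPM. Cd79a was at 0.527, 0.877 and 0.743 CPM in the aged libraries, against 0.0795, 0 and 0.132 CPM in the young ones. By edgeR it just missed the threshold (adjusted p = 0.0525), while Cd79b overlapped between ages (adjusted p = 0.462). The markers of natural killer and innate lymphoid cells summed to 324 to 506 CPM in aged and 112 to 137 CPM in young libraries. Of these 7, Klrb1c and Gata3 were called higher, while Ncr1, Gzma, Eomes and Tbx21 were at or under 0.103 CPM in every library. The 9 macrophage markers summed to 38.2 to 40.5 CPM in aged and 44.6 to 76.6 CPM in young libraries. The part of such cells in the results was not tested.

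**Figure D1:**
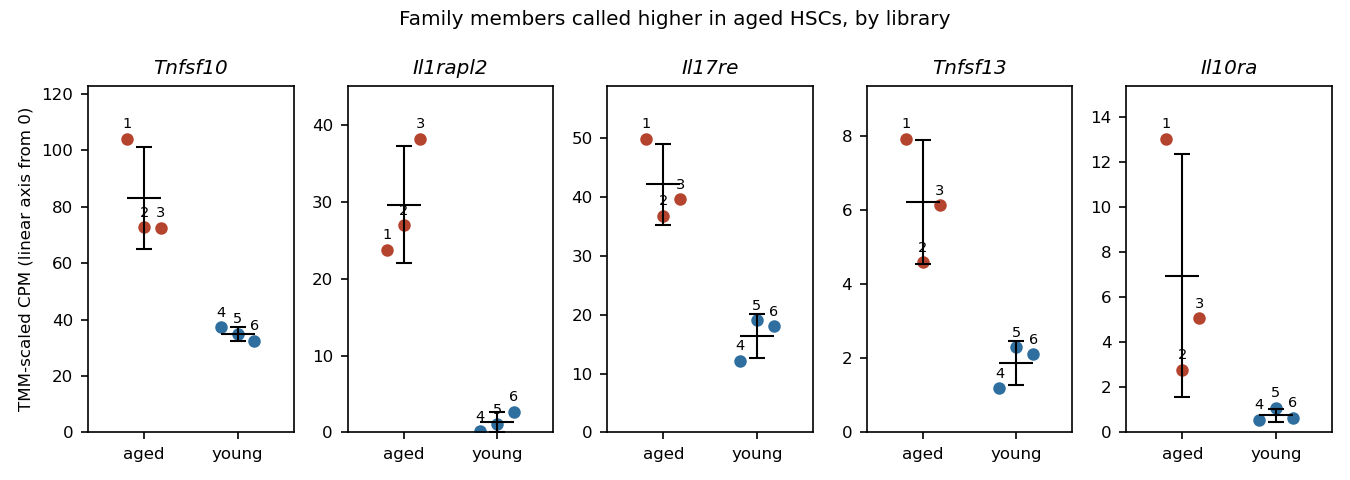
TMM-scaled CPM (vertical axes, linear from 0) of the 5 called members, with 1 point per library, numbered by replicate, aged on the left and young on the right; bars give the mean and SD of 3 libraries. In every panel the 3 aged points lie above the 3 young points, and the aged points of Il10ra run from 2.79 to 13.0 CPM.

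Among ligands, 2 of the 8 tested were called higher and none lower, against 4.26% and 1.50% of all tested genes. Tnfsf10, which encodes TRAIL, a ligand that can trigger cell death through its receptor DR5, had the smallest p of the family (mm10 chromosome 3, 27317077 to 27342232, plus strand). It stood at 104, 72.9 and 72.7 CPM in aged 1, 2 and 3, against 37.4, 35.0 and 32.5 CPM in young 4, 5 and 6. Aged 1 was the highest library, the other 2 aged libraries were nearly equal, and all 3 were above the young range. The rise was 2.38-fold (log2 fold change 1.25 ± 0.20 SE, adjusted p = 0.0222). The RNA of Tnfrsf10b, which encodes the receptor DR5, was 7.44 ± 1.26 CPM in aged HSCs, against 8.15 ± 1.52 CPM in young HSCs (SD, n = 3 each; adjusted p = 0.766), and its aged and young values overlapped.

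Tnfsf13 encodes APRIL, which binds the receptors TACI and BCMA of B cells and plasma cells (mm10 chromosome 11, 69682577 to 69685554, minus strand). Its level was 7.91, 4.59 and 6.13 CPM in aged 1, 2 and 3, against 1.19, 2.29 and 2.10 CPM in young 4, 5 and 6. Aged 2 was the lowest aged library and still above every young one. Tnfsf13 rose 3.28-fold (log2 fold change 1.72 ± 0.35 SE, adjusted p = 0.0397). Its interval lies inside that of Tnfsfm13, a joint transcript of Tnfsf12 and Tnfsf13 on the same strand with 0 counts in all libraries, so reads of these 3 genes may have been split or lost in counting. The receptor gene of APRIL that was tested, Tnfrsf13b (TACI), stood at 29.7 ± 5.43 CPM in aged HSCs, against 34.3 ± 5.55 CPM in young HSCs (adjusted p = 0.541), while Tnfrsf17 (BCMA) had 0 to 3 counts per library.

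The other ligands did not pass the test. Tnfsf13b, which encodes the B cell survival factor BAFF, was at 1.25, 2.94 and 2.14 CPM in the aged libraries, against 0.477, 0.747 and 0.614 CPM in the young ones, with no overlap and an adjusted p of 0.0629, and it was called higher by DESeq2. Tnfsf14 (LIGHT, a ligand of the lymphotoxin beta receptor and of HVEM) was at 20.3, 18.2 and 18.3 CPM in the aged libraries, against 10.8, 15.1 and 12.4 CPM in the young ones. Tnfsf4 (OX40 ligand, a costimulator of T cells) was at 17.5, 25.1 and 19.9 CPM in the aged libraries, against 17.1, 9.62 and 11.5 CPM in the young ones. Neither overlapped between ages, although aged 1 and young 4 nearly met for Tnfsf4, and their adjusted p-values were 0.146 and 0.169. Tnfsf4 was called higher in 1 of 14 alternatives and Tnfsf14 in 0. Tnfsf9 (4-1BB ligand) was at 14.5, 13.7 and 12.3 CPM in the aged libraries, against 15.7, 15.2 and 14.2 CPM in the young ones and was the only ligand above 10 CPM whose aged and young ranges overlapped (adjusted p = 0.614). Tnfsf12 (TWEAK) and Tnfsf11 (RANK ligand) stayed under 2 CPM in every library. The remaining 4 ligands, Tnfsf15, Tnfsf18, Tnfsf8 and Tnfsfm13, had 0 to 9 counts per library and were not tested.

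The stretch before the RefSeq start of Tnfsf10 is given because this member had the smallest p, and short windows are given for the called members whose promoter held a searched motif. Promoters came from RefSeq (build GRCm38.p6), which listed 54 of the 67 members and 4 of the 5 called ones. The 250 bases before each start were searched on both strands for the NF-kB motif (3 G, 5 bases of any kind, 2 C), TTCNNNGAA (STAT) and TGANTCA (AP-1). Capitals mark a match. The Tnfsf10 stretch (chr3:27316827-27317027, plus strand) holds none of these letters in that window and ends where an annotated exon begins. In Tnfsf13 an AP-1 match (chr11:69685671-69685697, minus strand) and 2 overlapping NF-kB matches (chr11:69685555-69685583, minus strand) were found. The Il1rapl2 window (chrX:137570707-137570736, plus strand) holds 1 NF-kB match, read on the opposite strand.
Tnfsf10 upstream: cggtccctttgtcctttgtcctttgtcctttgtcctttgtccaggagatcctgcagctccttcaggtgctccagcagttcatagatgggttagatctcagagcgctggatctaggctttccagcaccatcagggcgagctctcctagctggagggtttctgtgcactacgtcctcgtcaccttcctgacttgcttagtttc
Tnfsf13 AP-1: cattcatgccTGAGTCAgagtctacca
Tnfsf13 NF-kB: tccaacttaGGGGCCGCCCCtgggctcct
Il1rapl2 NF-kB: aggaggagcaGGAGCAGCCCtttgcagtga
The NF-kB letters are common: 45.8% of all 32851 listed promoters held them, against 22 of the 44 promoters of tested members. The STAT letters were in 7.02% of all promoters and in 8 of those 44, and the AP-1 letters in 6.75% and in 6. These are matches of letters, not shown binding sites. The 250 bases before Il17re held no match.

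By edgeR with all libraries none of the 15 tested TNF receptor genes was called in either direction, against 5.76% of all tested genes. Before adjustment 3 had a p under 0.05 with higher and 1 with lower levels, against 13.9% and 11.1% of all tested genes. DESeq2 called Tnfrsf1b higher and Tnfrsf13c lower, and limma-voom called none. Of the 4 receptors with a death domain, Tnfrsf1a (the main receptor for TNF) was at 68.7, 35.8 and 52.0 CPM in the aged libraries, against 21.7, 35.7 and 32.6 CPM in the young ones. Its aged values lay just above the young ones, aged 2 and young 5 being almost equal, and the adjusted p was 0.155. Tnfrsf21 (DR6) was at 69.2, 44.8 and 46.5 CPM in the aged libraries, against 45.1, 58.3 and 66.9 CPM in the young ones, with overlap and an adjusted p of 0.832. Tnfrsf25 (DR3) stayed under 5 CPM in every library.

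Receptors without a death domain went in both directions. Tnfrsf1b, the second TNF receptor, was at 58.5, 28.2 and 44.0 CPM in the aged libraries, against 14.9, 25.2 and 24.3 CPM in the young ones. Its groups did not overlap, aged 2 and young 5 lay closest, and the adjusted p was 0.111. Tnfrsf13c, which encodes the BAFF receptor, was at 6.57, 7.58 and 7.71 CPM in the aged libraries, against 9.86, 16.2 and 15.6 CPM in the young ones. Here every aged value lay below every young one (log2 fold change -0.93 ± 0.25 SE, adjusted p = 0.0789); without young 4 it was called lower (adjusted p = 0.0272). Tnfrsf18 (GITR, a costimulatory receptor of T cells) was at 38.5, 56.7 and 46.5 CPM in the aged libraries, against 112, 60.2 and 49.5 CPM in the young ones. Young 4 stood far above the other 5 libraries and the ranges overlapped (adjusted p = 0.259). Tnfrsf4, Tnfrsf11a, Tnfrsf12a and Tnfrsf14 stayed under 3.3 CPM. The 8 tested genes of this class had log2 fold changes from -0.93 to 1.02, with 4 positive and 4 negative.

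The decoy receptor genes Tnfrsf22 and Tnfrsf23 and the related Tnfrsf26 form a mouse gene cluster on chromosome 7. Tnfrsf22 and Tnfrsf23 are close paralogs, so their reads may be split. Tnfrsf26 was at 110, 210 and 168 CPM in the aged libraries, against 135, 80.4 and 94.1 CPM in the young ones, with young 4 inside the aged range (adjusted p = 0.215). Tnfrsf22, which binds TRAIL without signalling death, was at 12.0, 12.2 and 12.2 CPM in the aged libraries, against 6.76, 7.12 and 9.12 CPM in the young ones. Its aged values were nearly identical and all above the young ones (adjusted p = 0.113). Tnfrsf23 stayed under 1.4 CPM. The soluble receptor gene Tnfrsf11b (osteoprotegerin) had 3 to 11 counts per library and was not tested.

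**Figure D2:**
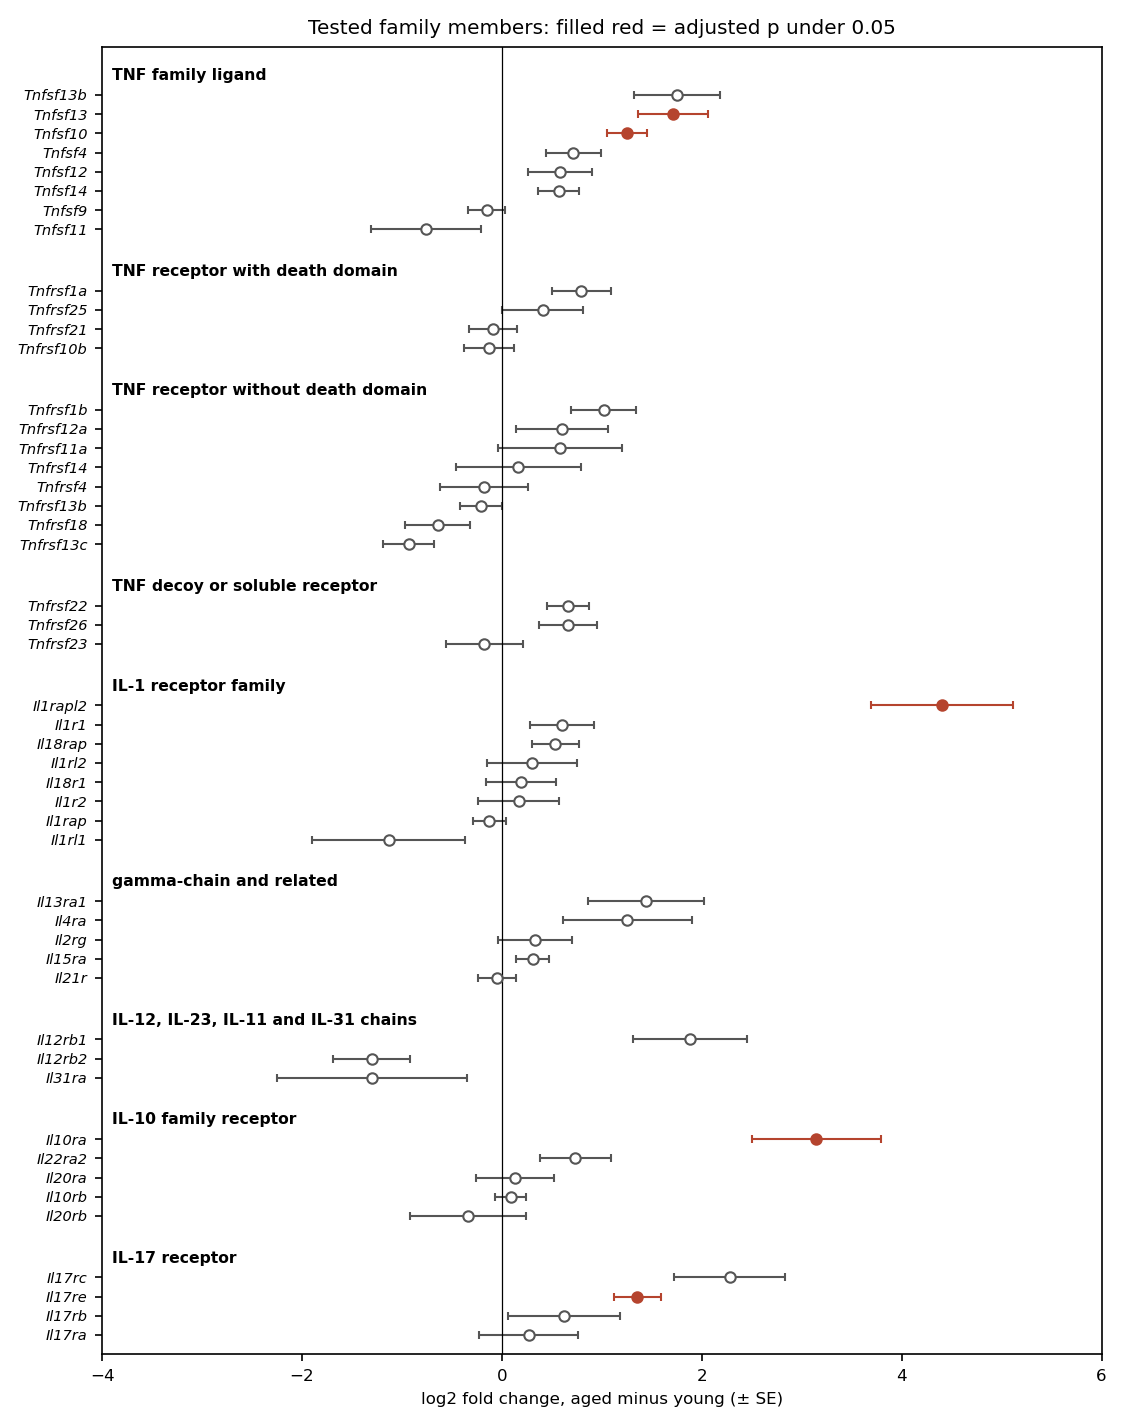
Log2 fold change, aged minus young (horizontal axis), of the 48 tested members with its standard error, grouped by role; filled red points have an adjusted p under 0.05 and open points do not. The values run from -1.30 for Il31ra and Il12rb2 to 4.40 for Il1rapl2, and the called members are 2 ligands and 3 interleukin receptor genes.

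Of the 25 tested interleukin rows, 3 were called higher and none lower, against 4.26% and 1.50% of all tested genes. In the IL-1 receptor family, 1 of 8 was called. Il1rapl2, a relative of the IL-1 receptor accessory protein that is best known from nervous tissue and has no established ligand, showed the largest change of all members (mm10 chromosome X, 137570754 to 138849077, plus strand). It was at 23.8, 27.0 and 38.2 CPM in aged 1, 2 and 3, against 0.159, 1.096 and 2.72 CPM in young 4, 5 and 6. In young 4 the value came from 2 counts, under the 3 counts (0.238 CPM) that a count of 0 allows there, and the aged libraries were all far above. The rise was 21.1-fold (log2 fold change 4.40 ± 0.71 SE, adjusted p = 0.0233). Without young 6 the log2 fold change was 5.43, and without young 4 it was 3.92. Tex13a lies within Il1rapl2 on the opposite strand, and the library kit does not tell strands apart. Tex13a had 7, 2 and 17 counts in aged 1, 2 and 3 and 0, 0 and 1 in young 4, 5 and 6, against 496 to 823 counts of Il1rapl2 in the aged libraries.

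The other IL-1 family receptors did not pass. Il1rap, the chain shared by the receptors for IL-1, IL-33 and IL-36, was at 31.4, 36.0 and 33.3 CPM in the aged libraries, against 31.9, 37.8 and 40.2 CPM in the young ones, with overlapping ranges (adjusted p = 0.642). Il1r1, the signalling receptor for IL-1, was at 22.5, 16.8 and 13.8 CPM in the aged libraries, against 7.24, 12.9 and 14.7 CPM in the young ones, and young 6 reached above aged 3 (adjusted p = 0.281). Il18rap, a chain of the IL-18 receptor, was at 31.6, 29.5 and 21.6 CPM in the aged libraries, against 23.5, 17.1 and 16.6 CPM in the young ones, with young 4 inside the aged range (adjusted p = 0.211). Il18r1, Il1rl2, Il1r2 and Il1rl1 (the receptor for IL-33) were under 10 CPM in every library, with overlapping ranges and adjusted p-values from 0.375 to 0.808. Il1rapl1, the X-linked sister gene of Il1rapl2, had 7, 10 and 14 counts in aged 1, 2 and 3 and 0, 2 and 3 in young 4, 5 and 6, and was under the filter.

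In the IL-10 receptor family, Il10ra was called and its partner was not. Il10ra, the chain that binds IL-10 (mm10 chromosome 9, 45253839 to 45269146, minus strand), was at 13.0, 2.79 and 5.06 CPM in aged 1, 2 and 3, against 0.556, 1.096 and 0.657 CPM in young 4, 5 and 6. Aged 1 was far above the other aged libraries, and all 3 were above the young range. It rose 8.85-fold (log2 fold change 3.15 ± 0.64 SE, adjusted p = 0.0397), and by limma-voom its adjusted p was 0.0696. Without aged 1 the log2 fold change was 2.32. Il10rb, the second chain, shared with IL-22 and other receptors, was at 49.4, 45.4 and 48.7 CPM in the aged libraries, against 39.2, 46.1 and 49.7 CPM in the young ones. All aged values lay inside the young range (adjusted p = 0.744). Il22ra2, a soluble protein that captures IL-22, was at 7.82, 12.1 and 10.9 CPM in the aged libraries, against 9.38, 5.13 and 4.16 CPM in the young ones, with young 4 inside the aged range (adjusted p = 0.246). It was called higher in 1 of 14 alternatives. Il20ra and Il20rb stayed under 2.6 CPM.

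Receptors of the IL-17 family had 4 tested members with positive log2 fold changes, from 0.27 to 2.28, of which 1 was called. Among all tested genes 52.7% were positive and 5.76% were called. Il17re, which pairs with Il17ra to bind IL-17C (mm10 chromosome 6, 113458484 to 113470751, plus strand), was at 49.9, 36.8 and 39.6 CPM in aged 1, 2 and 3, against 12.2, 19.0 and 18.1 CPM in young 4, 5 and 6. The lowest aged value, in aged 2, lay well above the highest young value, in young 5. It rose 2.56-fold (log2 fold change 1.36 ± 0.23 SE, adjusted p = 0.0278). Il17rc, which pairs with Il17ra for IL-17A and IL-17F, starts 703 bases after Il17re on the same strand. Il17rc stood at 10.9, 4.28 and 5.80 CPM in the aged libraries, against 0.477, 2.04 and 1.67 CPM in the young ones, without overlap (log2 fold change 2.28 ± 0.56 SE, adjusted p = 0.0610), and it was called by DESeq2. Il17ra itself was at 148, 52.1 and 68.0 CPM in the aged libraries, against 35.1, 89.5 and 97.7 CPM in the young ones. Its highest library was aged 1 and its lowest young 4, and the ranges overlapped (adjusted p = 0.749). Il17rb stayed under 1.3 CPM.

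Chains of the common gamma family did not pass the test. Il2rg, the common gamma chain shared by the receptors for IL-2, IL-4, IL-7, IL-9, IL-15 and IL-21, had the highest level of the set, at 216 ± 40.2 CPM per kb in aged HSCs and 172 ± 92.8 CPM per kb in young HSCs. Its values were 436, 620 and 484 CPM in aged 1, 2 and 3, against 664, 290 and 274 CPM in young 4, 5 and 6, with young 4 the highest of all 6 (adjusted p = 0.589). Without young 4 it was called higher (log2 fold change 0.84, adjusted p = 0.0444). It supplied 27.4% to 38.4% of the summed CPM of all members in aged and 25.4% to 46.8% in young libraries. Several chains that pair with it were measured beside it. Il15ra was at 55.1, 66.7 and 72.8 CPM in the aged libraries, against 55.8, 49.3 and 52.0 CPM in the young ones. Il21r was at 22.4, 20.4 and 22.01 CPM in the aged libraries, against 18.6, 25.7 and 22.9 CPM in the young ones. Il4ra, which serves the receptors for IL-4 and IL-13, was at 58.2, 18.7 and 23.3 CPM in the aged libraries, against 4.05, 17.8 and 19.9 CPM in the young ones. All 3 overlapped between ages, with adjusted p-values of 0.279, 0.870 and 0.262, and Il4ra was lowest in young 4. The chains Il2ra, Il2rb and Il9r had 0 to 25 counts per library and were not tested. Il13ra1, a receptor chain for IL-13 and IL-4, stayed under 1.6 CPM, with every aged value above every young one (adjusted p = 0.185).

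The chains of the IL-12 receptor differed in direction. Il12rb1, shared with the IL-23 receptor, was at 22.5, 10.8 and 13.6 CPM in the aged libraries, against 1.19, 4.78 and 6.53 CPM in the young ones. All aged values lay above all young ones, young 4 being the lowest (log2 fold change 1.88 ± 0.57 SE, adjusted p = 0.102). Il12rb2, the chain private to IL-12, was at 6.47, 4.64 and 3.30 CPM in the aged libraries, against 7.24, 11.6 and 16.6 CPM in the young ones. Here every aged value lay below every young one, with aged 1 and young 4 the closest pair (log2 fold change -1.30 ± 0.38 SE, adjusted p = 0.0951). Neither was called by edgeR with all 6 libraries. DESeq2, also with all 6, called Il12rb1 higher and Il12rb2 lower. By edgeR without young 4, Il12rb2 was called lower (adjusted p = 0.0404). Il31ra, a chain of the IL-31 receptor, stayed under 1.5 CPM, with overlapping ranges (adjusted p = 0.409).

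**Figure D3:**
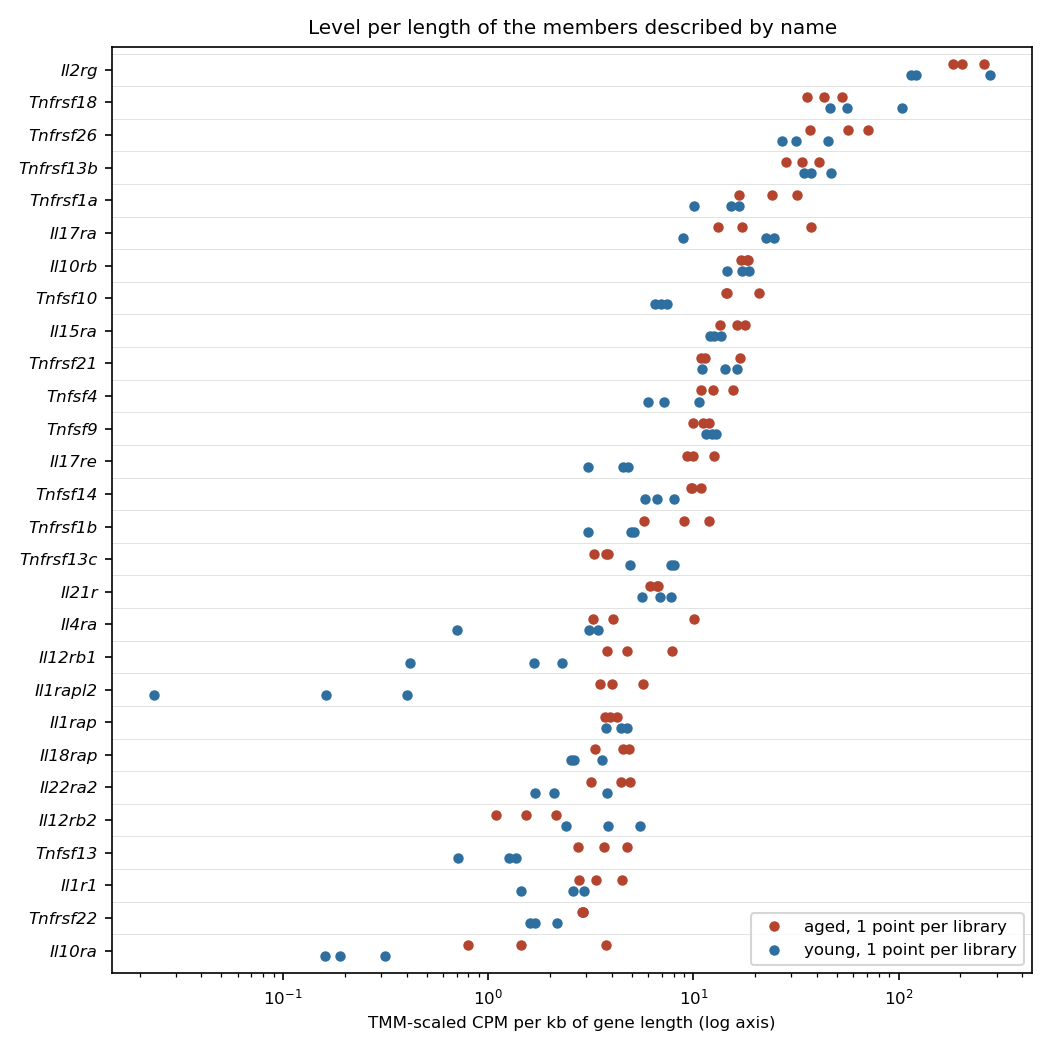
TMM-scaled CPM per kb of gene length (horizontal log axis) of 28 members, the called ones and those at 10 CPM or more in either group, ordered by the higher group mean, with aged points above young points and 1 point per library. Il2rg lies at the top, followed by Tnfrsf18, Tnfrsf26 and Tnfrsf13b for one or the other age, and Il10ra at the bottom.

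Set side by side per length, the members differed widely. After Il2rg came Tnfrsf26 with 54.9 ± 16.8 CPM per kb in aged HSCs and 34.7 ± 9.54 CPM per kb in young HSCs. Tnfrsf18 had 44.0 ± 8.50 CPM per kb in aged HSCs and 68.8 ± 31.0 CPM per kb in young HSCs. Tnfrsf13b followed with 34.4 ± 6.29 CPM per kb in aged HSCs and 39.7 ± 6.43 CPM per kb in young HSCs. In aged HSCs Tnfrsf26 and Tnfrsf18 differed by less than the larger of their SDs, and in young HSCs so did each neighbouring pair of Tnfrsf18, Tnfrsf13b and Tnfrsf26. Of the called genes, Tnfsf10 had the highest level, with 16.6 ± 3.61 CPM per kb in aged HSCs and 6.97 ± 0.482 CPM per kb in young HSCs, close to Il15ra with 15.8 ± 2.19 CPM per kb in aged HSCs and 12.8 ± 0.795 CPM per kb in young HSCs. Il17re stood at 10.6 ± 1.73 CPM per kb in aged HSCs and 4.14 ± 0.938 CPM per kb in young HSCs. Il1rapl2 stood at 4.38 ± 1.12 CPM per kb in aged HSCs and 0.196 ± 0.191 CPM per kb in young HSCs. In aged HSCs its mean lay within its SD of that of Tnfsf13, which had 3.71 ± 0.993 CPM per kb in aged HSCs and 1.11 ± 0.351 CPM per kb in young HSCs. Il10ra was the lowest, with 2.00 ± 1.54 CPM per kb in aged HSCs and 0.221 ± 0.0823 CPM per kb in young HSCs.

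The 19 members under the filter had at most 62 counts over all 6 libraries, and Tnfsfm13 alone had 0 in all of them. Il2ra and Il23r had counts in aged 2, the library with the most genes detected in the whole table, and in no other library. Il13ra2 had 19 counts in young 6 and 0 to 3 elsewhere. Il9r, the receptor for IL-9, had 1, 8 and 1 counts in aged 1, 2 and 3 and 2, 25 and 25 in young 4, 5 and 6. Il1rn, Il2rb, Il5ra, Il17rd, Il22ra1, Tnfrsf8 and Tnfrsf19 had at most 11 counts in any library. Tnfrsf9 (4-1BB) had 14, 18 and 4 counts in aged 1, 2 and 3 and 3, 4 and 8 in young 4, 5 and 6.

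Calls of the 5 members depended on the libraries used. With 1 library left out, Tnfsf10 and Il1rapl2 were each called in 2 of 6 runs and Il17re, Tnfsf13 and Il10ra in 1 of 6. Tnfsf10 was called without aged 1 or young 4, Il1rapl2 without young 4 or young 6, Il17re and Tnfsf13 without young 4, and Il10ra without aged 2. The fold stayed above 1 in all of these runs, and the adjusted p reached 0.0904 for Tnfsf10, 0.0912 for Il1rapl2, 0.0961 for Il17re, 0.131 for Tnfsf13 and 0.109 for Il10ra. Leaving young 4 and aged 2 out together, all 5 were called. No member was called in the run without aged 3 or in the run without young 5. In each of these runs 12 of 50 tested members were higher with a p under 0.05 before adjustment. With lower levels there were 3 without aged 3 and 2 without young 5. The shares of all tested genes in these runs were not computed, so nothing is read from these counts.

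**Figure D4:**
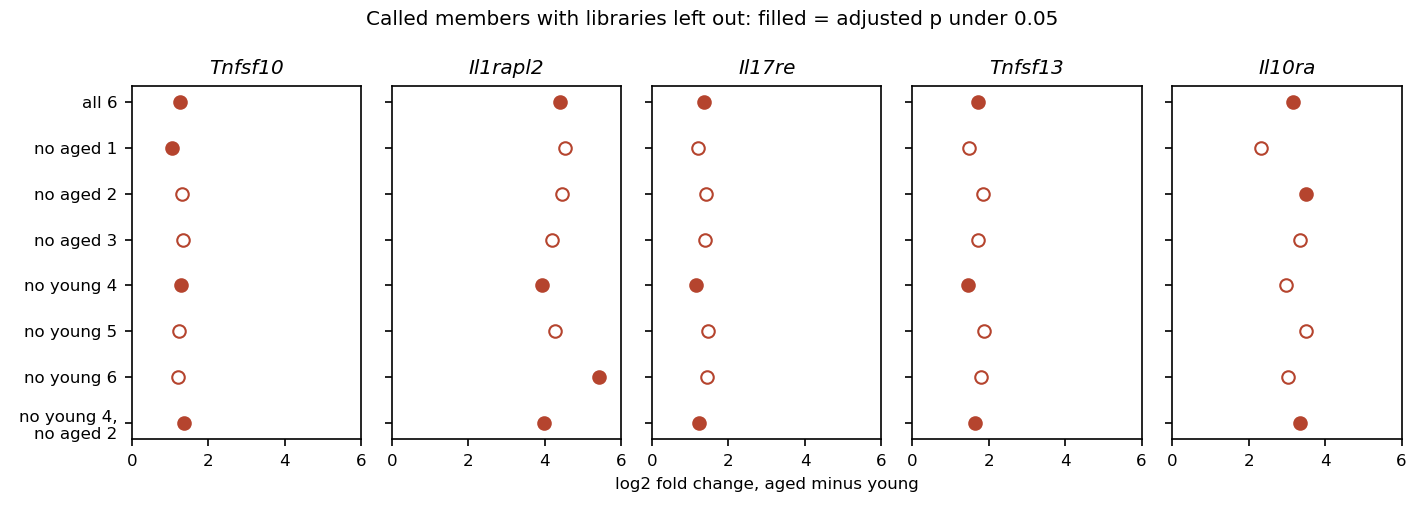
Log2 fold change, aged minus young (horizontal axes), of the 5 called members with all 6 libraries, without each library in turn and without the pair young 4 and aged 2 (rows); filled points have an adjusted p under 0.05. All points lie right of 0, Il1rapl2 moves the most, from 3.92 to 5.43, and no point is filled without aged 3 or without young 5.

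Genes around these receptors came from 6 lists, and 4 of their 94 tested genes were called higher and 2 lower. Among all tested genes, 4.26% were called higher and 1.50% lower. Among TNF superfamily genes with other names, Edar, a receptor of skin appendage development, rose 2.57-fold, with 15.2 ± 2.54 CPM in aged HSCs, against 5.95 ± 1.29 CPM in young HSCs (adjusted p = 0.0335), and none of the other 8 was called by edgeR with all libraries. Of these, Eda2r, a receptor of the ectodysplasin family, was called higher by DESeq2, by limma-voom and by edgeR without young 4. Ltb, a lymphotoxin subunit, was at 217 ± 52.2 CPM in aged HSCs, against 182 ± 8.70 CPM in young HSCs. The costimulatory receptor gene Cd27 was at 140 ± 15.3 CPM in aged HSCs, against 138 ± 23.9 CPM in young HSCs. Both had overlapping ranges. Tnf itself, added after its values were seen, was at 0.623, 0.361 and 0.186 CPM in the aged libraries, against 0.159, 1.74 and 2.85 CPM in the young ones (adjusted p = 0.199), and it was called lower without young 4.

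Of 30 adaptors and inhibitors of TNF receptors, none was called by edgeR with all libraries, against 5.76% of all tested genes. Before adjustment 2 higher and 2 lower genes had a p under 0.05, against 13.9% and 11.1% of all tested genes. Traf1, which just missed the threshold (adjusted p = 0.0502), was called higher by DESeq2, by limma-voom and by edgeR under 5 alternatives: upper-quartile scaling, no filter, the GC and length correction, without young 4, and without young 4 and aged 2. Their median log2 fold change was 0.00. Casp8, the initiator caspase of death receptors, was at 173 ± 19.7 CPM in aged HSCs, against 196 ± 35.5 CPM in young HSCs. Ripk3, a kinase of necroptosis, was at 142 ± 2.72 CPM in aged HSCs, against 161 ± 26.0 CPM in young HSCs. Both overlapped between ages. Of 13 genes of IL-1 receptor signalling, Irak3, an inhibitory kinase-like protein of the pathway, rose 1.69-fold, with 180 ± 22.2 CPM in aged HSCs, against 107 ± 7.63 CPM in young HSCs (adjusted p = 0.0458), a call lost with median-ratio scaling, without a filter and without young 4 and aged 2 together. Peli1, a ubiquitin ligase of the pathway, was at 149 ± 19.8 CPM in aged HSCs, against 145 ± 15.8 CPM in young HSCs (adjusted p = 0.883). Sigirr, an inhibitory receptor of the family, was at 147 ± 9.93 CPM in aged HSCs, against 115 ± 15.6 CPM in young HSCs (adjusted p = 0.234).

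None of the 22 JAK, STAT and SOCS genes was called by edgeR with all libraries or by limma-voom. By edgeR with all libraries 5.76% of all tested genes were called. Before adjustment 7 higher genes and 1 lower gene had a p under 0.05, against 13.9% and 11.1% of all tested genes. DESeq2 called Stat3 and Socs1 higher, and edgeR called Stat3 higher without young 4, with or without aged 2. The median log2 fold change was 0.41, against 0.04 for all tested genes. Jak1, a kinase of many interleukin receptors, was at 535 ± 43.6 CPM in aged HSCs, against 364 ± 63.1 CPM in young HSCs, without overlap (adjusted p = 0.142).

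Of 12 shared and related receptor chains, 2 were called higher and none lower, against 4.26% and 1.50% of all tested genes. Csf2rb was at 12.0 ± 6.04 CPM in aged HSCs, against 29.4 ± 6.83 CPM in young HSCs, without overlap (adjusted p = 0.0923). It was not called with all libraries by edgeR, but DESeq2 and edgeR without aged 1 called it lower. Osmr, which encodes the oncostatin M receptor beta chain, was at 15.97, 22.5 and 31.3 CPM in the aged libraries, against 0.556, 0.249 and 0.614 CPM in the young ones (adjusted p = 0.00358). Ifnlr1, the private chain of the interferon lambda receptor, was at 1.01, 0.929 and 1.25 CPM in the aged libraries and had 0, 1 and 0 counts in the young ones (adjusted p = 0.0160), so no fold is given. Of the interleukin genes themselves, 8 of 31 were tested, and 2 were called lower and none higher, against the same shares. Ebi3, a subunit of IL-27 and IL-35, was at 12.1 ± 0.337 CPM in aged HSCs, against 44.1 ± 3.32 CPM in young HSCs (adjusted p = 0.00381), and Il4, a T helper cytokine gene, at 3.06 ± 0.526 CPM in aged HSCs, against 8.25 ± 2.81 CPM in young HSCs (adjusted p = 0.0476). The Il4 call was lost with limma-voom, with the GC and length correction and without young 4 and aged 2 together. Among the 8, 2 genes had every aged value above every young one and 4 below, against 19.0% and 17.6% of all tested genes. The 2 higher ones were Il7 (log2 fold change 1.01, adjusted p = 0.0523) and Il27 (1.63, adjusted p = 0.0622). Neither was called by edgeR with all libraries, and both were called higher by DESeq2 and by edgeR without young 4. An antisense gene overlaps Ebi3. With a library left out, Osmr and Ebi3 were called in all 6 runs, Ifnlr1 in 2 and Edar, Irak3 and Il4 in 1, that without young 4.

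**Figure D5:**
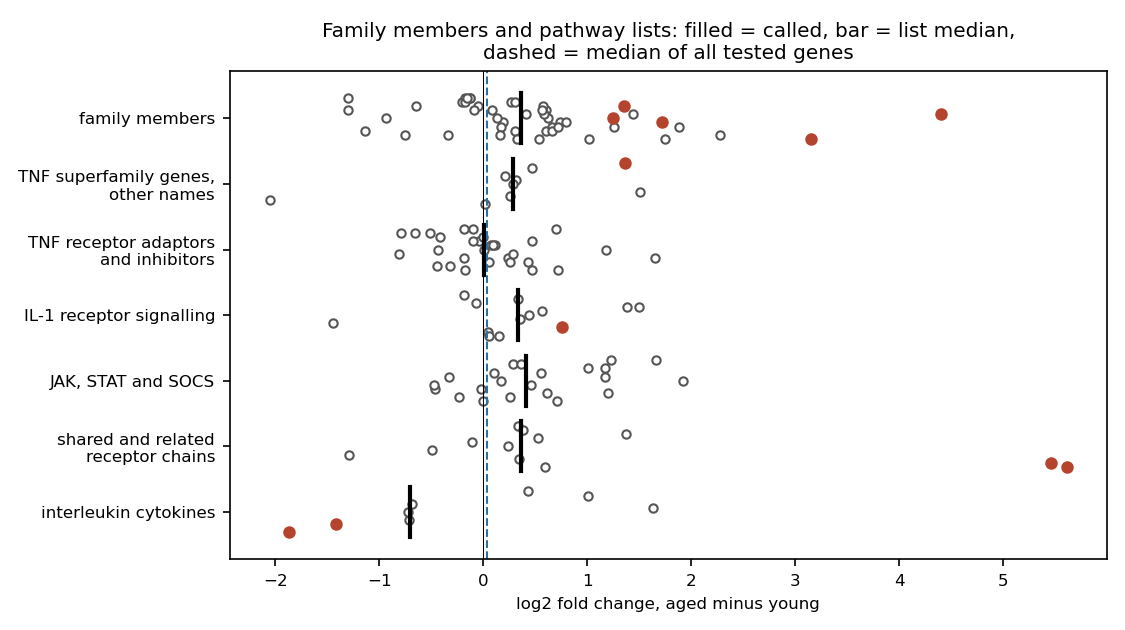
Log2 fold change, aged minus young (horizontal axis), of the tested members and of each pathway list, 1 point per gene; filled points are called, black bars are list medians and the dashed line is the median of all tested genes. The medians run from -0.70 for interleukin cytokines to 0.41 for JAK, STAT and SOCS genes.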

How the data were processed

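RNA of sorted HSCs was measured by RNA-seq in 3 aged and 3 young libraries. Per the labels' protocols, libraries came from the SMART-Seq v4 kit, whose amplified cDNA keeps no mark of strand, and were read as single reads. Per the submitters' processing notes, Trimmomatic, STAR 2.6.0, HTSeq 0.11.1, edgeR and the build mm10 were used. Neither what each tool did nor the annotation or counting mode is named there. Gene lengths stand beside the raw counts in the 1 table deposited by the authors.

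Groups came from sample titles, whose replicate numbers differ between ages and pair nothing. Counts were tested with edgeR 4.0.16 (R 4.3.3) after filterByExpr, with TMM scaling, glmQLFit and glmQLFTest and age as the only term, with Benjamini-Hochberg adjustment over 13413 genes, which held 99.92% of the counts. CPM values are TMM-scaled with no pseudocount and are given as mean ± SD over 3 libraries. A count of 0 allows 3 counts, or 0.132 to 0.238 CPM, which covers counting error only. Levels between genes were compared per kb. The fit was tested on simulated counts.

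Alternatives were median-ratio and upper-quartile scaling, no filter, a floor of 5 CPM in 3 libraries, DESeq2 1.42.0, limma-voom from limma 3.58.1, each library left out, young 4 and aged 2 both left out, and a correction of each library for GC and length by splines of 4 degrees of freedom, with GENCODE transcripts matched for 98.02% of tested genes. The members, lists and motifs were chosen with earlier results of these data known. Named with all values were called members and those at 10 CPM or more in either group. From each list came up to 6 called genes, or the 2 most abundant uncalled ones where fewer than 2 were called. Members at lower levels are given by range or counts. Members and list genes near the threshold or called in an alternative were added after their values were seen. Some genes that these rules name are not reported here.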

Additional observations from a re-analysis of the deposited data

How the results depend on the processing

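With 1 library left out, members called higher ranged from 0 to 5 (5 with all libraries) and lower from 0 to 2 (0), and list genes from 1 to 9 higher (4) and 1 to 3 lower (2). All tested genes called ran from 71 to 679 higher and from 3 to 350 lower, and the members' median log2 fold change from 0.34 to 0.47 (0.37 with all libraries). Median-ratio scaling moved no count by over 1.5 times. Upper-quartile scaling gave 7 list genes higher and a members' median of 0.44. Without a filter the median was 0.54 and 342 of all genes were lower. At 5 CPM or more, 3 members were higher, 1 list gene lower, and 363 and 80 of all genes higher and lower. DESeq2 called 9 members higher and 2 lower, 12 list genes higher, 1112 genes higher and 786 lower, with a members' median of 0.52. Limma-voom called 7 list genes higher and 1 lower, with a median of 0.43. With both young 4 and aged 2 left out, 2 members and 1 list gene were lower. Without the GC and length trend, 10 members, 9 list genes and 847 genes were higher and 380 lower, with a median of 0.43. The cause of these shifts was not tested.

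Of the called members, none changed sign in any alternative. Among the uncalled members named with all their values, the sign changed 8 times. With a library left out, the log2 fold change ran from -0.31 (without aged 1) to 0.51 for Il17ra, which was also negative without young 4 (-0.097), from -0.025 (without young 4) to 0.16 for Il10rb, from -0.19 to 0.052 (without young 5) for Il21r and from -0.32 to 0.045 (without young 6) for Tnfrsf21, which was also positive without aged 3 (0.0064). Upper-quartile scaling gave 0.0105 for Il21r, and the GC and length correction gave 0.077 for Tnfrsf13b. All of these sign changes had adjusted p-values of 0.741 or more. No paired analysis was possible because the aged and young samples share no replicate number. Low counts limit the 19 untested members.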
